A study of Mus musculus with 12 samples.

Results

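The mitochondrial ribosomal protein genes were examined in cultured mouse endometrial cells. Members were the genes whose mouse symbol begins with Mrpl or Mrps followed by a number and at most 1 letter, and 78 of the 55385 gene identifiers in the count and TPM tables met this rule. The rule uses no measured value. All 78 passed the filter on low counts, and the lowest estimated count of any member in any library was 181. RNA sequencing had been done on 12 libraries in 3 groups of 4. HPmECC and mECC are endometrial cancer cell lines, and the normal group is a primary culture of endometrial cells; all 3 groups come from C57BL/6 mice. Per the design text, some cancer cells overexpressed Myc; which ones is not stated in the labels. Each cancer group is 1 line, and no label ties a library to a separate culture or animal, so p-values here reflect only how far these libraries vary, possibly for technical reasons.

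Mitochondria carry their own ribosome, which translates the few respiratory chain proteins encoded by mitochondrial DNA. Its ribosomal RNAs come from mitochondrial DNA, whereas its proteins are encoded in the nucleus, made in the cytosol and imported. The large subunit (Mrpl genes, in the main) forms the peptide bond, and the small subunit (Mrps genes, in the main) reads the messenger RNA. Some of the proteins have bacterial homologues, and others are found only in mitochondria. Of the 78 members, 51 encode proteins of the large subunit (30 with bacterial homologues and 21 specific to mitochondria) and 26 encode proteins of the small subunit (16 and 10). These counts follow the structure of the ribosome rather than the symbols: Mrps30 and Mrps18a sit in the large subunit despite their names. The remaining member, Mrps36, encodes a subunit of the 2-oxoglutarate dehydrogenase complex.

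Library totals were 18402202 to 26873582 estimated counts in HPmECC, 21755275 to 25821106 in mECC and 16332060 to 24202564 in normal cells. CPM below are counts scaled to library size by TMM factors, and TPM are the deposited length-scaled levels, which allow different genes to be compared. The groups differed in markers of cell types. The 12 epithelial markers summed to 319 to 335 CPM in HPmECC libraries, 1662 to 1699 CPM in mECC libraries and 9881 to 10230 CPM in normal libraries, and the 12 fibroblast markers to 20410 to 22750, 17620 to 19620 (Thy1 at 0) and 6438 to 7638 CPM in the same order. The fibroblast markers did not move together: 8 were higher and 4 lower in mECC against normal cells, 8 higher and 4 lower in HPmECC against normal cells, and 6 higher and 6 lower in HPmECC against mECC. No epithelial marker was at 0 in any group. The 12 leukocyte markers summed to 18.3 to 21.4 CPM in HPmECC libraries (Ptprc, Tyrobp, Cd3e and Adgre1 at 0 counts), 11.5 to 14.1 CPM in mECC libraries (Tyrobp and Cd3e at 0) and 259.9 to 278 CPM in normal libraries. The 8 smooth muscle markers summed to 313 to 363, 151 to 156 and 2689 to 3162 CPM. The 8 endothelial markers (Cdh5, Tie1 and Tek at 0 in HPmECC) stayed at or below 8.61 CPM in both lines, against 125 to 140.4 CPM in normal libraries. The 6 mesothelial markers reached at most 42.2 CPM in either line (Upk1b at 0 in both lines; Upk3b, Lrrn4 and Krt5 also in HPmECC, and Wt1 in mECC), against 444 to 486 CPM in normal libraries.

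The members together took up more of the transcript pool in the cancer lines than in normal cells. Their summed level was 0.764% ± 0.0106 of all TPM in HPmECC, 0.739% ± 0.0115 in mECC and 0.572% ± 0.0105 in normal cells (SD, n = 4 each). The lowest and highest libraries had 0.751% and 0.774% in HPmECC, 0.722% and 0.747% in mECC, and 0.560% and 0.582% in normal cells, so no library of one group overlapped those of another. In bulk samples, more cells of a type and more RNA per cell cannot be told apart. The median of the members' levels was 80.03 TPM in HPmECC, 84.6 TPM in mECC and 59.7 TPM in normal cells. At least 100 TPM was reached by 28 members in HPmECC, 27 in mECC and 13 in normal cells. Levels of single members spanned more than an order of magnitude within a group. Mrpl33, the homologue of bacterial bL33, was the highest in HPmECC at 603 TPM and in mECC at 509.7 TPM, and Mrpl52, a mitochondria-specific protein of the large subunit, was the highest in normal cells at 334 TPM. The lowest was Mrpl1, whose protein forms the mobile L1 stalk, in HPmECC at 20.6 TPM and in normal cells at 10.1 TPM, and Mrps30 in mECC at 17.96 TPM. Over the 12 libraries the 5 highest members by mean TPM were Mrpl33 (443 TPM), Mrps21 (299 TPM), Mrpl52 (239 TPM), Mrpl17 (225 TPM) and Mrpl54 (181 TPM). The 5 lowest were Mrpl1 (16.5 TPM), Mrps30 (18.7 TPM), Mrps31 (20.4 TPM), Mrpl47 (21.7 TPM) and Mrpl44 (27.7 TPM).

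The large and small subunits did not hold the same place in each group. Genes of the large subunit summed to 0.521% ± 0.00495 of TPM in HPmECC, 0.488% ± 0.00982 in mECC and 0.375% ± 0.00949 in normal cells, and genes of the small subunit to 0.234% ± 0.00559, 0.240% ± 0.00199 and 0.191% ± 0.00106. The ratio of the large to the small sum was 2.196 to 2.269 in HPmECC libraries, 1.999 to 2.07 in mECC libraries and 1.91 to 2.001 in normal libraries. HPmECC libraries were above all others in this ratio, and mECC and normal libraries overlapped. This order changed with Mrpl33, Mrps6, Mrps21 and Mrpl52 left out, a choice made after their values were seen and not by abundance alone. Mrpl17 and Mrpl54, higher than Mrps6 by mean TPM, were kept. The ratio was then 2.165 to 2.24 in HPmECC, 2.151 to 2.175 in mECC and 2.42 to 2.51 in normal cells, which put normal cells highest. Because of that choice, the change does not show which members set the order.

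**Figure D1:**
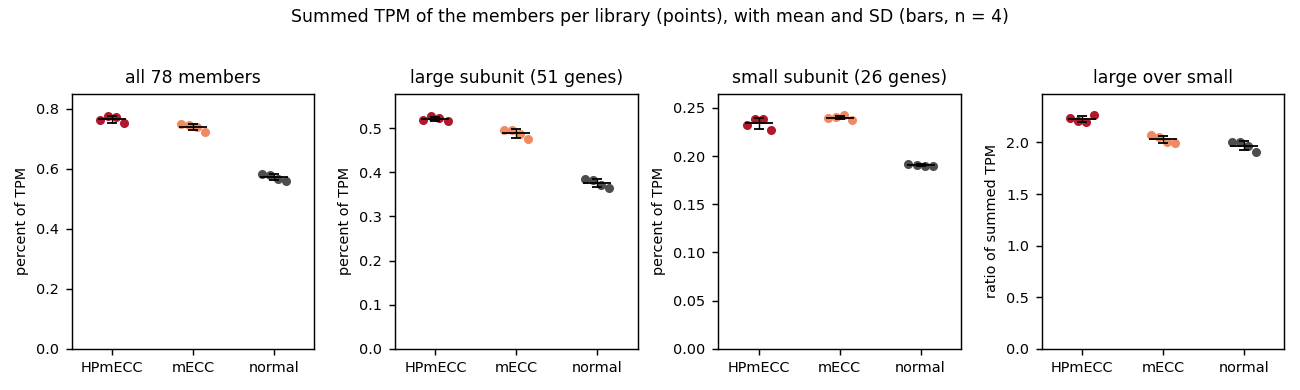
Summed TPM of the 78 members, of the 51 genes of the large subunit and of the 26 genes of the small subunit as percent of all TPM, and the ratio of the last 2 sums, per library (points) with mean and SD (bars, n = 4). The members' sum lies between 0.751% and 0.774% in HPmECC, between 0.722% and 0.747% in mECC and between 0.560% and 0.582% in normal libraries, and the ratio is above 2.1 in HPmECC libraries alone.

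Between the lines, more members were higher than lower in HPmECC, by small amounts. Of 78 members, 42 were higher in HPmECC than in mECC, 12 were lower and 24 did not pass the test (edgeR quasi-likelihood test, adjusted p under 0.05). Over all 15283 genes tested, 33.8% were called higher and 34.5% lower by the same rule, 68.3% in all. The median log2 fold change of members was 0.11 (1.08-fold), with quartiles of −0.03 and 0.26, against −0.002 for all genes. With library totals 33 members were higher and 17 lower (median 0.07), where 4658 of all genes were higher and 5848 lower, and limma on log2(TPM + 1) called 27 higher and 20 lower (median 0.06), where 3875 of all genes were higher and 5362 lower. With TMM the range ran from −0.61 for Mrps6 to 0.62 for Mrps10. The median standard error of a member was 0.044 on the log2 scale. A change of at least 1.5-fold was found for 1 member higher in HPmECC, Mrps10 (12% of all genes), and 1 lower, Mrps6 (14.7% of all genes). No member changed 2-fold, where 6.73% of all genes were higher and 9.4% lower by at least that much. The libraries of the 2 lines did not overlap for 37 members that were higher in HPmECC (31.2% of all genes) and 10 that were lower (31.9% of all genes).

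In mECC against normal cells the members moved apart in both directions. In mECC, 40 of 78 members were higher, 18 were lower and 20 did not pass, where 42.1% of all genes were higher and 44.2% lower, 86.3% in all. The median was 0.14 (1.101-fold), against −0.02 for all genes, and the range ran from −1.58 for Mrps6 to 1.06 for Mrps17. Mrps17 and Mrpl33 were higher by at least 2-fold (18.4% of all genes), and Mrps6 and Mrpl52 were lower by at least 2-fold (22.8% of all genes). At 1.5-fold, 14 members were higher (27.4% of all genes) and 3 lower (30.5% of all genes). Libraries did not overlap for 40 members higher in mECC (40.0% of all genes) and 19 lower (42.3% of all genes).

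In HPmECC against normal cells, 53 of 78 members were higher, 10 were lower and 15 did not pass, where 43.0% of all genes were higher and 43.3% lower, 86.4% in all. The median was 0.24 (1.18-fold), with quartiles of 0.08 and 0.54, against 0.001 for all genes. The range ran from −2.19 for Mrps6 to 1.33 for Mrpl33. Mrpl33, Mrpl2, Mrpl14 and Mrps17 were higher by at least 2-fold (18.5% of all genes), and Mrps6 alone was lower by that much (23.0% of all genes). At 1.5-fold, 17 members were higher (27.8% of all genes) and 2 lower (30.4% of all genes). Libraries did not overlap for 50 members higher in HPmECC (40.5% of all genes) and 8 lower (41.2% of all genes). Both comparisons with normal cells share the 4 normal libraries, so they are not independent of each other.

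How far members stood from normal cells depended on the scaling. With library totals in place of TMM, the median of all genes stood at 0.22 in mECC and 0.20 in HPmECC, against −0.018 and 0.001 with TMM. In mECC 60 members were then higher and 7 lower, where 7866 of all 15283 genes were higher and 5453 lower. In HPmECC 65 members were then higher and 5 lower, where 7725 of all genes were higher and 5583 lower. Relative to all genes the members' median was higher under every scaling and filter tried, by 0.14 to 0.20 in mECC against normal cells, 0.22 to 0.29 in HPmECC against normal cells and 0.10 to 0.14 in HPmECC against mECC. The differences in cell type markers given above go with these comparisons. So do 16 mitosis genes, of which 15 were higher in mECC than in normal cells (42.1% of all genes). In HPmECC 16 were higher than in normal cells (43.0% of all genes) and 16 higher than in mECC (33.8% of all genes). The part of the markers and mitosis genes in the members' values was not tested.

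**Figure D2:**
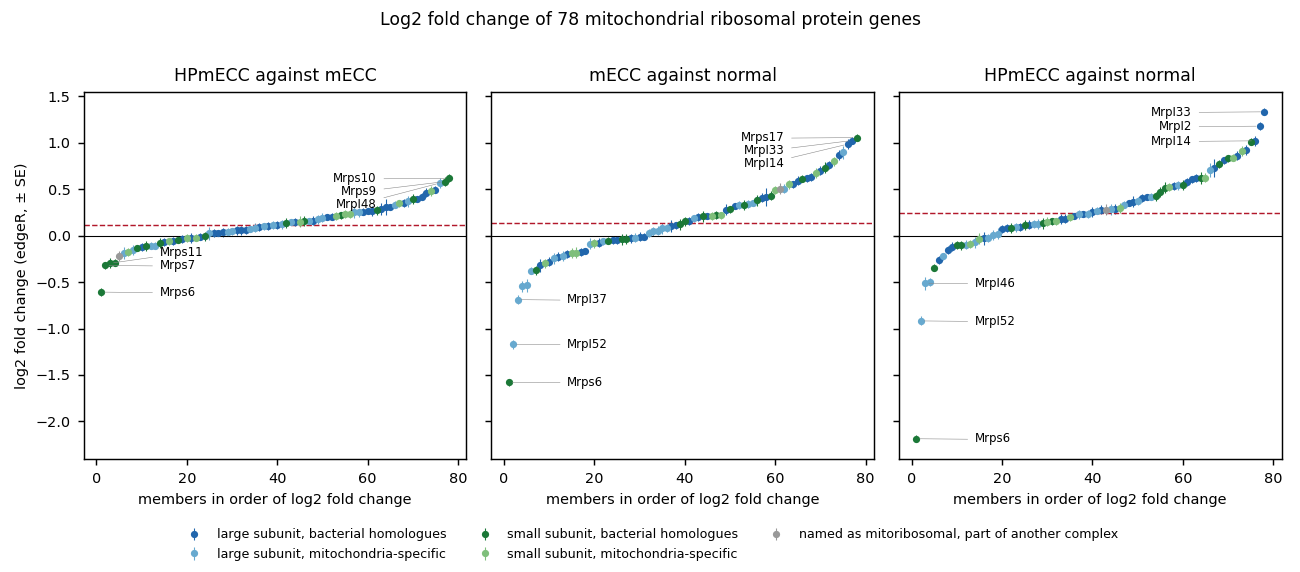
Log2 fold change of each member with its standard error in each comparison, members in rising order and coloured by subunit and origin; the dashed line is the members' median. The median is 0.11 for HPmECC against mECC, 0.14 for mECC against normal and 0.24 for HPmECC against normal cells, and Mrps6 is the lowest member in each panel.

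Beside the counts by class and by position below, 33.8% of all genes were higher and 34.5% lower in HPmECC against mECC. Against normal cells the shares were 42.1% and 44.2% in mECC, and 43.0% and 43.3% in HPmECC. Small subunit proteins with bacterial homologues split most widely. Of 16, 7 were higher in HPmECC against mECC and 5 lower, at a median log2 fold change of −0.03. In mECC against normal cells 10 were higher and 2 lower (median 0.21), and in HPmECC against normal cells 10 were higher and 3 lower (median 0.29). Mrps6 (chr16:92058270-92112227, + strand; homologue of bacterial bS6) had 29.5, 31.9, 29.9 and 31.8 CPM in HPmECC libraries, 46.1, 45.1, 47.4 and 49.3 CPM in mECC libraries, and 139, 145, 134 and 142 CPM in normal libraries. The 3 groups stood in clear steps with no overlap, HPmECC lowest and normal cells highest. The log2 fold change was −0.61 ± 0.041 (SE) in HPmECC against mECC (adjusted p = 2.23e-10), −1.58 ± 0.037 in mECC against normal cells (adjusted p = 4.85e-18) and −2.19 ± 0.039 in HPmECC against normal cells (adjusted p = 7.06e-20). That made Mrps6 4.55-fold lower in HPmECC than in normal cells.

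Mrps17 (chr5:129715497-129722556, + strand), whose bacterial homologue uS17 binds ribosomal RNA early in assembly of the small subunit, moved the other way. It had 76.01, 78.3, 76.1 and 71.7 CPM in HPmECC libraries, 77.5, 78.6, 78.4 and 77.1 CPM in mECC libraries, and 38.6, 36.8, 38.5 and 36.3 CPM in normal libraries. The lines overlapped each other, and each lay wholly above normal cells. The log2 fold change was −0.05 ± 0.033 in HPmECC against mECC, which did not pass (adjusted p = 0.232), 1.06 ± 0.036 in mECC against normal cells (adjusted p = 1.49e-15) and 1.01 ± 0.036 in HPmECC against normal cells (adjusted p = 3.18e-15). In edgeR with library totals, Mrps17 was called lower in HPmECC than in mECC (log2 −0.09, adjusted p = 0.0263). Mrps18c, 1 of 3 mammalian relatives of bacterial bS18, followed the same order, with 26.5 ± 1.80 CPM in HPmECC libraries, 28.5 ± 1.21 CPM in mECC libraries and 17.2 ± 0.891 CPM in normal libraries.

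Mrps10 and Mrps9, homologues of uS10 and uS9 in the head of the small subunit, stood out in HPmECC. Mrps10 (chr17:47368887-47381417, + strand) had 66.5, 62.9, 65.1 and 58.02 CPM in HPmECC libraries, 41.3, 40.4, 41.2 and 41.5 CPM in mECC libraries, and 39.1, 34.4, 37.96 and 36.6 CPM in normal libraries. Every HPmECC library was above every other library, and mECC lay just above normal cells. The log2 fold change of Mrps10 was 0.62 ± 0.044 in HPmECC against mECC (adjusted p = 4.72e-10), 0.15 ± 0.048 in mECC against normal cells (adjusted p = 0.00598) and 0.77 ± 0.046 in HPmECC against normal cells. Mrps9 averaged 43.8 ± 2.93 CPM in HPmECC libraries, 29.3 ± 0.988 CPM in mECC libraries and 30.01 ± 1.44 CPM in normal libraries, higher in HPmECC than in mECC (log2 0.58, adjusted p = 6.21e-09), while mECC and normal libraries overlapped. Mrps14, the homologue of uS14, was higher in HPmECC (34.6 ± 2.09 CPM) than in mECC (28.6 ± 1.34 CPM), and mECC was below normal cells (37.1 ± 0.883 CPM).

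Mrps21, Mrps11 and Mrps7 were among the members lower in HPmECC than in mECC. Mrps21 (bS21 homologue) averaged 42.1 ± 1.08 CPM in HPmECC libraries, 51.5 ± 1.67 CPM in mECC libraries and 53.5 ± 1.86 CPM in normal libraries, lower in HPmECC than in either (log2 −0.29 against mECC and −0.35 against normal cells). Mrps7, whose bacterial homologue uS7 organises the head of the small subunit, had 60.7, 62.8, 58.5 and 61.04 CPM in HPmECC libraries, 73.4, 76.5, 79.9 and 74.1 CPM in mECC libraries, and 68.3, 64.6, 69.03 and 60.1 CPM in normal libraries. The mECC libraries stood above all others, and HPmECC and normal libraries overlapped. Against mECC, Mrps7 was lower in HPmECC (log2 −0.32 ± 0.042, adjusted p = 1.92e-06). It was higher in mECC than in normal cells (log2 0.22, adjusted p = 0.000117) and lower in HPmECC than in normal cells (log2 −0.10, adjusted p = 0.0366), a call that turned to 0.09 with library totals and was lost without HPmECC replicates 1, 3 or 4, mECC replicate 2, or normal replicates 1 or 3. The call in HPmECC was also lost with no filter (log2 −0.07). Mrps12, a protein of the decoding centre, averaged 25.1 ± 1.63 CPM in HPmECC libraries, 26.5 ± 0.812 CPM in mECC libraries and 22.96 ± 1.60 CPM in normal libraries. Its call in HPmECC against normal cells (log2 0.13, adjusted p = 0.0445) was lost without HPmECC replicates 1 or 4 or normal replicates 1, 2 or 4. It was also lost with DESeq2, median-of-ratios factors, the stricter filter and a fit limited to the 2 groups.

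**Figure D3:**
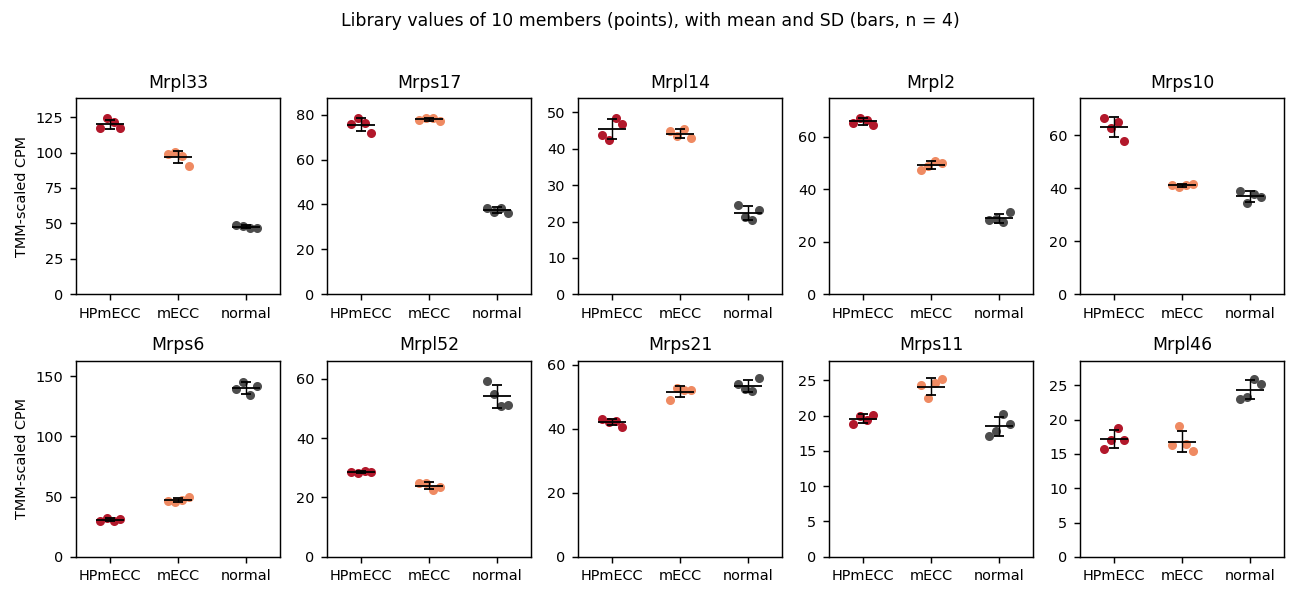
TMM-scaled CPM of 10 members in each of the 12 libraries (points), with mean and SD (bars, n = 4), HPmECC, mECC and normal from left to right. Mrpl33, Mrps17, Mrpl14 and Mrpl2 lie above normal cells in both lines, Mrps6 and Mrpl52 lie below them in both, and Mrps10 is highest in HPmECC with every library above 58 CPM.

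Among the 10 small subunit proteins specific to mitochondria, 6 were higher and 1 lower in HPmECC than in mECC (median 0.18), 6 higher and 3 lower in mECC against normal cells (median 0.22), and 8 higher in HPmECC than in normal cells, where Mrps18b and Mrps31 did not pass (median 0.25). Mrps34, which stabilises the small subunit in mice, averaged 55.8 ± 1.99 CPM in HPmECC libraries, 47.5 ± 2.11 CPM in mECC libraries and 29.8 ± 2.34 CPM in normal libraries. Mrps35 followed with 39.6 ± 1.21, 31.1 ± 0.540 and 22.1 ± 0.841 CPM in the same order, and the libraries of the 3 groups did not overlap for either gene. Mrps26 was higher in both lines than in normal cells, but lower in HPmECC (39.7 ± 1.63 CPM) than in mECC (44.9 ± 1.83 CPM), with 25.8 ± 1.38 CPM in normal libraries. Mrps22, in which human mutations cause mitochondrial disease, had 28.99, 31.7, 31.4 and 30.7 CPM in HPmECC libraries, 23.9, 20.2, 23.1 and 21.1 CPM in mECC libraries, and 25.9, 25.3, 24.5 and 24.7 CPM in normal libraries. Normal libraries lay between the 2 lines with no overlap, and Mrps22 was called higher in HPmECC (log2 0.29, adjusted p = 6.92e-05) and lower in mECC (log2 −0.19, adjusted p = 0.00531) than in normal cells, the second turning to 0.06 with library totals. Mrps18b, a mitochondria-specific relative of bS18, averaged 54.6 ± 2.90 CPM in HPmECC libraries, 47.1 ± 2.30 CPM in mECC libraries and 58.00 ± 2.18 CPM in normal libraries. Its lower level in mECC than in normal cells no longer passed with library totals (log2 −0.06). Mrps31 was called lower in mECC (16.1 ± 0.348 CPM) than in normal cells (18.2 ± 1.12 CPM), with 17.9 ± 1.08 CPM in HPmECC libraries, and that log2 fold change of −0.18 also turned to 0.06 with library totals. Its higher level in HPmECC than in mECC (log2 0.15, adjusted p = 0.0313) was lost without HPmECC replicates 1 or 3 or mECC replicates 2, 3 or 4. That call was also lost with DESeq2, library totals, median-of-ratios factors, no filter and limma on log2 TPM.

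Of the large subunit proteins with bacterial homologues, in HPmECC against mECC 17 of 30 were higher and 1 lower (median 0.13), in mECC against normal cells 17 were higher and 6 lower (median 0.18), and in HPmECC against normal cells 23 were higher and 3 lower (median 0.32). Mrpl33 (chr5:31596935-31664384, + strand) had 117, 124, 121 and 117 CPM in HPmECC libraries, 98.99, 100.3, 97.2 and 90.5 CPM in mECC libraries, and 48.6, 48.3, 46.8 and 47.1 CPM in normal libraries. The 3 groups formed separate steps with HPmECC highest. The gene model of Mrpl33 in GENCODE M21 has 30 distinct exons, and how its reads spread over them was not tested. The log2 fold change was 0.31 ± 0.034 in HPmECC against mECC (adjusted p = 1.64e-07), 1.02 ± 0.037 in mECC against normal cells (adjusted p = 3.81e-15) and 1.33 ± 0.037 in HPmECC against normal cells (adjusted p = 5.54e-17).

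Mrpl2 (chr17:46646229-46650139, + strand), the homologue of uL2 near the peptidyl transferase centre, had 65.2, 67.1, 66.6 and 64.5 CPM in HPmECC libraries, 47.4, 49.1, 50.7 and 49.9 CPM in mECC libraries, and 28.3, 28.6, 27.7 and 31.5 CPM in normal libraries. Here too the 3 groups were apart in the same order, with a log2 fold change of 0.42 ± 0.037 in HPmECC against mECC, 0.76 ± 0.042 in mECC against normal cells and 1.18 ± 0.041 in HPmECC against normal cells. Mrpl14 (chr17:45686322-45698495, + strand), the homologue of uL14, which in human mitochondria binds the assembly factor MALSU1, had 43.8, 42.3, 48.4 and 46.8 CPM in HPmECC libraries, 44.7, 43.4, 45.5 and 42.9 CPM in mECC libraries, and 24.6, 21.2, 20.4 and 23.2 CPM in normal libraries. Its level did not pass the test between the lines (log2 0.04 ± 0.049) and was higher in each line than in normal cells (log2 1.02 in HPmECC and 0.98 in mECC). Mrpl1 was likewise close between the lines, at 30.2 ± 0.808 CPM in HPmECC libraries and 29.1 ± 1.63 CPM in mECC libraries, against 15.99 ± 0.721 CPM in normal libraries. Mrpl16, the uL16 homologue, averaged 41.6 ± 2.32 CPM in HPmECC libraries, 37.3 ± 1.10 CPM in mECC libraries and 23.03 ± 1.34 CPM in normal libraries. Mrpl12, which also binds the mitochondrial RNA polymerase, differed in smaller steps, at 104 ± 0.297 CPM in HPmECC libraries, 90.2 ± 1.76 CPM in mECC libraries and 78.01 ± 3.61 CPM in normal libraries. Mrpl13 was higher in HPmECC (68.97 ± 0.402 CPM) than in mECC (48.9 ± 0.990 CPM), while mECC overlapped normal cells (45.3 ± 3.25 CPM). The call in mECC against normal cells (log2 0.11, adjusted p = 0.0237) was lost without mECC replicate 1 or normal replicates 1 or 3. With DESeq2 or median-of-ratios factors it was lost as well.

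Mrpl17 and Mrpl30 took opposite sides of normal cells in the 2 lines. Mrpl17, a bL17 homologue at the exit of the polypeptide tunnel, had 69.7, 74.8, 73.1 and 70.7 CPM in HPmECC libraries, 55.97, 56.04, 52.4 and 54.6 CPM in mECC libraries, and 61.7, 60.6, 63.3 and 60.1 CPM in normal libraries. Mrpl30, a uL30 homologue, had 49.8, 54.3, 47.6 and 49.8 CPM in HPmECC libraries, 38.7, 36.1, 37.7 and 34.1 CPM in mECC libraries, and 40.4, 46.7, 45.3 and 45.1 CPM in normal libraries. For both genes normal libraries lay between those of the lines with no overlap. The difference between the lines was a log2 fold change of 0.40 ± 0.034 for Mrpl17 (adjusted p = 7.49e-09) and 0.46 ± 0.050 for Mrpl30 (adjusted p = 1.75e-07). Against normal cells, Mrpl17 was at −0.17 in mECC and 0.23 in HPmECC, the first turning to 0.08 with library totals, and Mrpl30 was at −0.28 in mECC, where it no longer passed with library totals (−0.04), and 0.18 in HPmECC. Mrpl20, which in bacteria binds early during assembly, was lower in HPmECC (41.02 ± 2.30 CPM) and in mECC (43.2 ± 1.47 CPM) than in normal cells (49.5 ± 1.59 CPM), and Mrpl21 averaged 35.7 ± 0.889, 34.1 ± 1.47 and 39.8 ± 1.92 CPM in the same order. With library totals, Mrpl21 turned to 0.02 in mECC and 0.04 in HPmECC, and Mrpl20 turned to 0.05 in mECC and no longer passed in HPmECC (−0.07). Mrpl47, a protein at the tunnel exit, was at 17.95 ± 1.92 CPM in HPmECC libraries, 14.6 ± 0.117 CPM in mECC libraries and 18.3 ± 0.598 CPM in normal libraries; its lower level in mECC than in normal cells no longer passed with library totals (log2 −0.08).

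Mitochondria-specific proteins of the large subunit held the most members lower than normal cells by count, but by a small margin. Of 21, 12 were higher and 4 lower in HPmECC against mECC (median 0.11). In mECC against normal cells 6 were higher and 7 lower (median 0.03), where 44.2% of all genes were lower. In HPmECC against normal cells 11 were higher and 4 lower (median 0.13), where 43.3% of all genes were lower. Both shares of all genes are larger than those of this class. Large subunit proteins with bacterial homologues had 6 lower in mECC and 3 in HPmECC. The call of Mrpl44 in mECC changed sign with library totals. Mrpl52 (chr14:54426909-54429756, + strand) had 28.4, 28.2, 29.02 and 28.4 CPM in HPmECC libraries, 24.97, 24.9, 22.5 and 23.6 CPM in mECC libraries, and 59.3, 54.7, 50.96 and 51.1 CPM in normal libraries. Both lines lay far below normal cells, and HPmECC lay just above mECC. The log2 fold change was 0.25 ± 0.052 in HPmECC against mECC (adjusted p = 0.000321), −1.17 ± 0.050 in mECC against normal cells (adjusted p = 5e-14) and −0.92 ± 0.049 in HPmECC against normal cells (adjusted p = 1.73e-12). Mrpl37 averaged 48.5 ± 2.64 CPM in HPmECC libraries, 42.5 ± 0.735 CPM in mECC libraries and 68.6 ± 4.27 CPM in normal libraries, lower in each line than in normal cells under every scaling tried. Mrpl39 was lower in HPmECC (40.5 ± 0.646 CPM) and in mECC (36.4 ± 0.894 CPM) than in normal cells (47.3 ± 1.93 CPM), and in HPmECC it no longer passed with library totals (log2 −0.03).

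Mrpl48 and Mrpl46 belong to the central protuberance, the crown of the large subunit. Mrpl48 had 23.1, 22.7, 22.9 and 21.95 CPM in HPmECC libraries, 14.8, 14.5, 15.7 and 16.3 CPM in mECC libraries, and 24.2, 23.2, 20.99 and 21.1 CPM in normal libraries. HPmECC and normal libraries overlapped, and mECC lay below both (log2 0.57 ± 0.057 in HPmECC against mECC, adjusted p = 5.84e-08, and −0.55 ± 0.059 in mECC against normal cells, adjusted p = 6.6e-08). Mrpl46 was low in both lines, at 17.2 ± 1.26 CPM in HPmECC libraries and 16.8 ± 1.56 CPM in mECC libraries, against 24.4 ± 1.40 CPM in normal libraries. Mrpl41 is another mitochondria-specific protein of the large subunit. Of the 21 in that class, it alone was called at least 1.5-fold higher than normal cells, in each line. It averaged 22.8 ± 1.63 CPM in HPmECC libraries and 26.1 ± 0.665 CPM in mECC libraries, against 13.9 ± 1.57 CPM in normal libraries. Its lower level in HPmECC than in mECC (log2 −0.19) no longer passed without HPmECC replicate 3. Mrpl40 averaged 24.2 ± 0.603 CPM in HPmECC libraries, 26.96 ± 2.08 CPM in mECC libraries and 25.5 ± 1.45 CPM in normal libraries, and its call between the lines was lost without HPmECC replicate 1 or mECC replicate 1.

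Of the members with a role of their own, Mrpl58, a peptidyl-tRNA hydrolase that frees stalled ribosomes, averaged 29.2 ± 0.313 CPM in HPmECC libraries, 27.5 ± 1.56 CPM in mECC libraries and 26.8 ± 1.63 CPM in normal libraries. With TMM it passed only in HPmECC against normal cells (log2 0.13, adjusted p = 0.0278), and not without normal replicate 4 (log2 0.09). With DESeq2 or median-of-ratios factors that call was lost as well. In edgeR with library totals, Mrpl58 was also called higher in mECC than in normal cells (log2 0.29, adjusted p = 5.77e-05). Mrps30 was higher in HPmECC (42.7 ± 3.19 CPM) than in mECC (33.04 ± 1.81 CPM) and normal cells (35.02 ± 2.20 CPM). Mrps18a averaged 52.6 ± 2.21 CPM in HPmECC libraries, 48.6 ± 1.60 CPM in mECC libraries and 49.5 ± 3.10 CPM in normal libraries, and its call between the lines (log2 0.11, adjusted p = 0.0326) was lost without HPmECC replicates 1, 2 or 3 or mECC replicates 1 or 4. That call was also lost with DESeq2, library totals, median-of-ratios factors and limma on log2 TPM. Mrpl44, a relative of bacterial ribonuclease III, averaged 21.6 ± 0.647 CPM in HPmECC libraries, 19.8 ± 0.653 CPM in mECC libraries and 23.1 ± 1.18 CPM in normal libraries; its call in mECC against normal cells (log2 −0.22) turned to 0.02 with library totals. Its call between the lines (log2 0.12, adjusted p = 0.0369) was lost without HPmECC replicates 1, 2 or 3 or mECC replicates 1, 2 or 4. The same call was lost with DESeq2, library totals, median-of-ratios factors, no filter and limma on log2 TPM. Mrpl54, a protein of the stalk, lay between 44.4 and 50.4 CPM in all 12 libraries, and its call between the lines (log2 −0.11, adjusted p = 0.0215) was lost without HPmECC replicates 1 or 4 or mECC replicates 1, 2 or 3. Mrps36, which is not a protein of the ribosome, was highest in mECC, at 25 ± 1.12 CPM in HPmECC libraries, 29.2 ± 1.67 CPM in mECC libraries and 20.6 ± 1.35 CPM in normal libraries.

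Grouped by position, the 6 proteins around the polypeptide exit tunnel (Mrpl17, Mrpl22, Mrpl23, Mrpl24, Mrpl45 and Mrpl47) had 5 members higher in HPmECC than in mECC (all but Mrpl22, at −0.01), 3 higher and 2 lower in mECC against normal cells, and 4 higher in HPmECC against normal cells, where Mrpl24 (0.09) and Mrpl47 (−0.03) did not pass. The 5 proteins of the stalk, where translation factors dock, had 2 higher (Mrpl12 and Mrpl53) and 1 lower (Mrpl54) between the lines, 2 higher (Mrpl10 and Mrpl12) in mECC against normal cells, and 3 higher (Mrpl10, Mrpl12 and Mrpl53) in HPmECC against normal cells. The 5 of the central protuberance had 2 higher (Mrpl38 and Mrpl48) and 1 lower (Mrpl40) between the lines, 2 lower (Mrpl46 and Mrpl48) in mECC against normal cells, and 2 higher (Mrpl38 and Mrpl58) and 1 lower (Mrpl46) in HPmECC against normal cells. The 37 members outside the rule for named members ranged from −0.13 (Mrps2) to 0.39 (Mrps16) in HPmECC against mECC, from −0.24 (Mrpl57) to 0.63 (Mrpl22) in mECC against normal cells, and from −0.12 (Mrpl9) to 0.83 (Mrps5) in HPmECC against normal cells, all as log2 fold changes.

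Several members share sequence with neighbours, and no strand setting is given in the sources used here. Exons of 33 members overlapped exons of another gene in the GENCODE M21 annotation, 28 of them on the opposite strand, and a protein-coding gene started within 1000 bases on the opposite strand of 33 members. Mrps6 shared 159 exon bases, 10.4% of its own, with Slc5a3, an inositol transporter on the same strand, which averaged 23.7 ± 1.82 CPM in HPmECC libraries, 16.6 ± 1.52 CPM in mECC libraries and 302 ± 26.4 CPM in normal libraries. Slc5a3 was low in both lines like Mrps6, but it was higher in HPmECC than in mECC (log2 0.50), where Mrps6 was lower. How reads were divided between the genes was not tested, so the size of the Mrps6 differences is uncertain. Mrps11 and Mrpl46, a pair of members that start head to head on chromosome 7 and overlap by 173 exon bases, did not move together. Mrps11, the uS11 homologue, had 18.8, 19.9, 19.4 and 20.2 CPM in HPmECC libraries, 24.4, 22.4, 24.6 and 25.1 CPM in mECC libraries, and 17.1, 17.8, 20.2 and 18.8 CPM in normal libraries, highest in mECC with HPmECC and normal libraries overlapping. Mrpl46 had 15.8, 17.1, 18.8 and 17.02 CPM in HPmECC libraries, 16.3, 19.04, 16.4 and 15.5 CPM in mECC libraries, and 23.02, 23.4, 25.95 and 25.2 CPM in normal libraries, highest in normal cells with the lines overlapping. In mECC against normal cells the log2 fold change was 0.38 ± 0.058 for Mrps11 and −0.54 ± 0.070 for Mrpl46. The overlap was larger for Mrps34 (63.4% of its exon bases with Mapk8ip3 and 36.97% with Nme3), Mrps25 (69.8% with Nr2c2) and Mrpl53 (87.97% with Gm42688), and the values of these 3 are uncertain. Other members shared fewer bases, but with neighbours on the opposite strand at higher mean TPM. Among them Mrpl47 (21.7 TPM) shared 13.9% with Ndufb5 (145 TPM) and 10.2% with Actl6a (60.6 TPM). Mrpl48 (35.1 TPM) shared 8.68% with Rab6a (89.8 TPM), and Mrpl44 (27.7 TPM) shared 7.66% with Wdfy1 (35.2 TPM). Mrpl18 (107 TPM) shared 10.1% with Tcp1 (565 TPM), and Mrpl36 (63.6 TPM) shared 2.58% with Ndufs6 (177 TPM). Mrpl19 shared 36.0% with Gcfc2, Mrpl43 shared 33.4% with Twnk and Mrpl24 shared 26.3% with Rrnad1, each neighbour at a lower mean TPM than the member. How reads were divided was not tested here either, so these values are uncertain too. Mrpl23 is uncertain as well, because the pseudogene Mrpl23-ps1 was listed at 35.8 TPM in HPmECC, 31.4 TPM in mECC and 28.1 TPM in normal cells, beside 64.5, 55.4 and 35.7 TPM for Mrpl23.

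Promoter windows from RefSeq (GRCm38.p6), 250 bases before to 50 after the start, were found for 69 members; Mrpl4, Mrpl13, Mrpl15, Mrpl19, Mrpl38, Mrpl54, Mrps28, Mrps34 and Mrps35 had none. The windows of 5 members are shown. Mrpl33, Mrps17, Mrps6 and Mrpl52 changed at least 2-fold in mECC against normal cells, and Mrps11 belongs to the head-to-head pair. Windows of Mrpl2 and Mrpl14, at least 2-fold higher in HPmECC than in normal cells, are not shown. The sequences run 5′ to 3′ on the + strand, and capitals mark matches to the motifs named after them.
Mrpl33, chr5:31613701-31614000: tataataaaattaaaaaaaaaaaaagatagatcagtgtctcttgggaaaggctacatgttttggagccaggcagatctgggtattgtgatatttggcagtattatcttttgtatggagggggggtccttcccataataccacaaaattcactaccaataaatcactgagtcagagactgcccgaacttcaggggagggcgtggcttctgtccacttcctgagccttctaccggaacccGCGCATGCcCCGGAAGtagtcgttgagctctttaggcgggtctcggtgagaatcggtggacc
Mrps17, chr5:129715247-129715546: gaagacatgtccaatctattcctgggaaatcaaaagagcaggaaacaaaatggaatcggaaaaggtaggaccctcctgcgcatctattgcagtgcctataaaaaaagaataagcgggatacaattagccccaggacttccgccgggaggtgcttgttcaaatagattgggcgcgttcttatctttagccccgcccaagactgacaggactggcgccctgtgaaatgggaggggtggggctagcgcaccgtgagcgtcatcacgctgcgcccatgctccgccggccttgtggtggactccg
Mrps6, chr16:92058086-92058385: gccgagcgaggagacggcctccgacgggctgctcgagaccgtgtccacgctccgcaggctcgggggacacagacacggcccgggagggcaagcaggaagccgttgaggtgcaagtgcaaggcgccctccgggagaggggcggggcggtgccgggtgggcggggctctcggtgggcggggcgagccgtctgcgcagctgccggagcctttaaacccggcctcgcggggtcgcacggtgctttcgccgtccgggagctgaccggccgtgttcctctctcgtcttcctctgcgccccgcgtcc
Mrpl52, chr14:54426659-54426958: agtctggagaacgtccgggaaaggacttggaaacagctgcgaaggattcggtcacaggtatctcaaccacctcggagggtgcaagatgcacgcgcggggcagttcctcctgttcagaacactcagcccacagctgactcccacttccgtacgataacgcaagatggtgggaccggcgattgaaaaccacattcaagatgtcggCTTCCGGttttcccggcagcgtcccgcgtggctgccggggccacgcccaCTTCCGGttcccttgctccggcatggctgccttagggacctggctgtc
Mrps11, chr7:78782881-78783180: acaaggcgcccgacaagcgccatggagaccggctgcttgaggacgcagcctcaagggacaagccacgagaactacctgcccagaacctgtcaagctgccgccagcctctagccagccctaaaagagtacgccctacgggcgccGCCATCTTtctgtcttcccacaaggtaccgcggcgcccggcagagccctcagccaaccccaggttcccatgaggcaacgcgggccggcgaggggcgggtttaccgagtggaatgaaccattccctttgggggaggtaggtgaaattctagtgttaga
Searched on both strands were the E-box bound by MYC (CACGTG), the NRF1 core (GCATGCGC), the NRF1 palindrome (the same core preceded by GC, so that every palindrome also counts as a core), the ETS motif bound by GABPA among others (CCGGAAG) and the YY1 motif (AAGATGGC). The Mrpl33 window lies inside the span of the counted gene model (chr5:31596935-31664384) and not at its start. Measured from the RefSeq start, it holds an NRF1 core (on the opposite strand) beginning 12 bases before and an ETS match beginning 3 bases before. The Mrpl52 window holds an ETS match 47 bases before the start and another 2 bases after it. Whether matches go with the direction of change was not tested over the members. The Mrps11 window holds a YY1 match beginning 107 bases before its start, and the Mrps17 and Mrps6 windows hold none of the 5 motifs.

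Over all members with a window, the ETS motif was the most frequent, in 26 of 69 (37.7%), against 18.8% of the 11157 genes tested that had a window and 9.93% of all 27025 genes with one. The YY1 motif was in 12 members (17.4%), against 4.96% of the genes tested and 3.19% of all genes. The NRF1 core was in 8 members (11.6%), against 5.58% and 3.05%, and the full palindrome in 3 (4.35%), against 2.18% and 1.07%. The E-box was in 5 members (7.25%), Mrpl2, Mrpl20, Mrpl36, Mrpl37 and Mrps18c, against 11.4% of the genes tested and 8.09% of all genes. These 5 included members higher in both lines than in normal cells (Mrpl2 and Mrps18c) and members lower in both (Mrpl37, and Mrpl20 with TMM scaling, which turned to 0.05 in mECC with library totals). Mrpl36 stood at a log2 fold change of −0.08 in mECC and 0.28 in HPmECC against normal cells. In HPmECC against mECC the log2 fold change was 0.42 for Mrpl2, 0.36 for Mrpl36 and 0.19 for Mrpl37. Mrpl20 (−0.07) and Mrps18c (−0.11) did not pass there with TMM. Myc itself averaged 266 ± 24.0 CPM in HPmECC libraries, 59.4 ± 2.09 CPM in mECC libraries and 111 ± 5.05 CPM in normal libraries. A link between Myc and the levels of these members was not tested. A match describes these letters only and shows no binding.

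**Figure D4:**
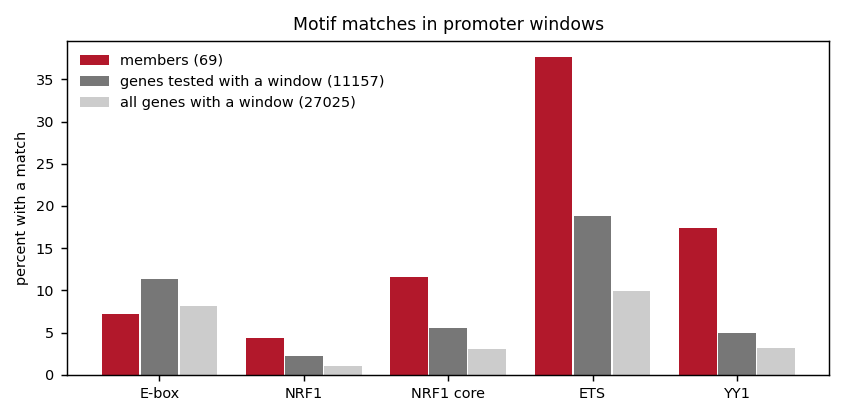
Percent of genes whose promoter window holds each motif on either strand, for the 69 members with a window, the 11157 genes tested with a window and all 27025 genes with one. The ETS motif (37.7% of members) and the YY1 motif (17.4%) are more frequent in members than in the other 2 sets, and the E-box (7.25%) is not.

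The other genes of mitochondrial translation were read from lists that do not overlap the members. For the counts here and in the next paragraph, 33.8% of all genes were higher and 34.5% lower in HPmECC against mECC. Against normal cells the shares were 42.1% and 44.2% in mECC, and 43.0% and 43.3% in HPmECC. Of 5 proteins of the mitochondrial ribosome with other names, Dap3, Ptcd3, Aurkaip1 and Gadd45gip1 did not pass between the lines (log2 0.01 to 0.03), and Chchd1 was higher in HPmECC (38.9 ± 3.44 CPM) than in mECC (21.4 ± 1.67 CPM), with 35.6 ± 1.60 CPM in normal libraries (log2 0.86 in HPmECC against mECC, adjusted p = 9.49e-10, and −0.73 in mECC against normal cells). Of 26 assembly factors, 12 were higher and 5 lower in HPmECC than in mECC (median 0.11), 13 higher and 5 lower in mECC against normal cells (median 0.14), and 16 higher and 3 lower in HPmECC than in normal cells (median 0.26). Gtpbp10, a GTPase in assembly of the large subunit, averaged 46.3 ± 1.53 CPM in HPmECC libraries, 34.8 ± 1.31 CPM in mECC libraries and 20.8 ± 0.635 CPM in normal libraries. Of 10 translation factors, 7 were higher and 2 lower in HPmECC than in mECC, 6 higher and 2 lower in mECC against normal cells, and 7 higher and 2 lower in HPmECC than in normal cells. Guf1, a GTPase related to bacterial LepA, averaged 37.6 ± 3.16 CPM in HPmECC libraries, 30.8 ± 1.46 CPM in mECC libraries and 11.04 ± 0.423 CPM in normal libraries.

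Of 10 genes that transcribe or copy mitochondrial DNA, 9 were higher in HPmECC than in mECC and 1 did not pass, 3 were higher and 3 lower in mECC against normal cells, and 7 higher and 1 lower in HPmECC than in normal cells. The mitochondrial RNA polymerase gene Polrmt averaged 31.2 ± 1.46 CPM in HPmECC libraries, 26.3 ± 0.410 CPM in mECC libraries and 27.2 ± 1.77 CPM in normal libraries, and the transcription factor gene Tfam 38.3 ± 2.53, 31.9 ± 1.12 and 31.6 ± 1.13 CPM. Nuclear-encoded subunits of the respiratory chain, 77 in all, had 34 higher and 24 lower in HPmECC than in mECC (median 0.06), 48 higher and 18 lower in mECC against normal cells (median 0.26), and 58 higher and 14 lower in HPmECC than in normal cells (median 0.27). Their summed level was 2.70% ± 0.0295 of TPM in HPmECC, 2.78% ± 0.0314 in mECC and 1.96% ± 0.0266 in normal cells. Of the 13 proteins encoded by mitochondrial DNA, which the mitochondrial ribosome translates, 1 transcript was higher and 4 lower in HPmECC than in mECC, 2 higher and 3 lower in mECC against normal cells, and 1 higher and 6 lower in HPmECC than in normal cells. They summed to 3.02% ± 0.129 of TPM in HPmECC, 3.39% ± 0.309 in mECC and 2.95% ± 0.583 in normal cells. Normal replicates 1 and 2 had 2.32% and 2.59%, and normal replicates 3 and 4 had 3.32% and 3.55%. In mECC against normal cells the libraries overlapped for all 13 transcripts. In HPmECC against normal cells they did not overlap for 1 transcript that was higher (40.5% of all genes) and 3 lower (41.2% of all genes). The 79 genes tested for proteins of the cytosolic ribosome had 68 higher and 2 lower in HPmECC than in mECC (median 0.25), 25 higher and 46 lower in mECC against normal cells (median −0.19), and 44 higher and 23 lower in HPmECC than in normal cells (median 0.14). Their share of TPM was 17.5% ± 0.132 in HPmECC, 15.6% ± 0.177 in mECC and 13.8% ± 0.239 in normal cells, so the share was higher in mECC than in normal cells while the median log2 fold change with TMM was below 0. No test of the difference between lists was run, and the calls against normal cells move with the scaling as given above.

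**Figure D5:**
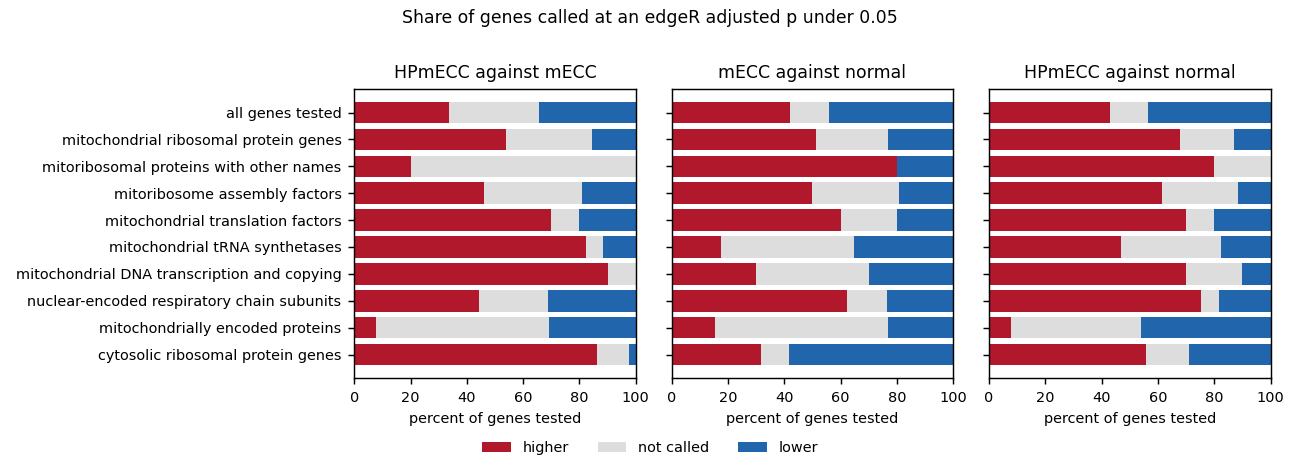
Percent of tested genes called higher, not called and called lower (edgeR adjusted p under 0.05) in each comparison, for all genes tested, the members and 8 related gene lists. In HPmECC against mECC, 42 of 78 members and 68 of 79 cytosolic ribosomal protein genes are higher; in mECC against normal cells, 40 of 78 members and 25 of 79 cytosolic ribosomal protein genes are higher.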

How the data were processed

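Per the labels' protocols, total RNA was purified on RNeasy columns and turned into TruSeq mRNA libraries. Trim Galore, STAR 2.6.1a, RSEM 1.3.1 and build GRCm38 appear in the submitters' processing notes. Annotation release and strand setting: not given in the sources used here. Gene-level estimated counts from RSEM were whole numbers as deposited, so no rounding was needed. TPM, scaled by the authors to transcript length and library sum, gave levels and shares. RSEM divides reads that fit several genes, so overlapping genes and near copies are uncertain.

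Of 55385 identifiers, 55144 matched a symbol. The main test was the quasi-likelihood test of edgeR 4.0.16 (R 4.3.3) over all 12 libraries, 1 coefficient per group, TMM factors, filterByExpr at its default minimum of 10 counts, and Benjamini-Hochberg adjustment over 15283 genes with a threshold of 0.05. The fit was tested on simulated data. The biological coefficient of variation was 4.27%. Standard errors of log2 fold changes are the fold change over the square root of F; other errors are SD over 4 libraries. Gene positions are those of GENCODE M21 (GRCm38). Lists were described by counts and medians, with no set test.

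Alternatives were other normalizations and filters, DESeq2 1.42.0, limma 3.58.1 on log2 TPM with a pseudocount of 1 or 0.1, fits limited to 2 groups, blocks by replicate number and by library pair (replicates 1 and 2 against 3 and 4), a 1.5-fold minimum, and each library left out.

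The rule for named members took, per comparison, the 8 highest and 8 lowest called members with at least 5 CPM, those changed at least 2-fold, the 5 highest and 5 lowest by TPM, members with opposite calls against normal cells, and 8 members chosen for their roles, giving 41 members. In other lists it allowed the 2 called genes that changed most, from 5 CPM upwards, and Myc, Tfam, Polrmt and Dap3. Others are named as ends of ranges, as members of a list, or for their overlaps or promoters. Members and lists were chosen with earlier results of these data known. Figures were drawn with matplotlib 3.10.9 in Python 3.11.15.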

Additional observations from a re-analysis of the deposited data

Results flagged for a closer look

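In 4 members the effects of the 2 lines against normal cells differed in direction, and the difference between the lines passed the edgeR test. The log2 difference of HPmECC against mECC was 0.396 for Mrpl17, 0.461 for Mrpl30, 0.478 for Mrps22 and −0.321 for Mrps7. Normal libraries lay between those of the lines with no overlap for Mrpl17, Mrpl30 and Mrps22, and for Mrps7 they overlapped HPmECC. The lower calls against normal cells depended on the scaling, as given for each gene in the results, while the difference between the lines kept its call under the alternatives tried.

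In 3 groups 1 library stood apart from the other 3. For Mrpl13, mECC replicate 1 had 50.37 CPM, where the others had 48.26 to 48.55 CPM. For Mrpl54, mECC replicate 4 had 44.98 CPM, where the others had 49.65 to 50.37 CPM. For Mrps12, normal replicate 3 had 25.34 CPM, where the others had 21.87 to 22.36 CPM. Chance flags about 1 in 20 groups, and 126 groups of 4 were examined. Without mECC replicate 1, the Mrpl13 call in mECC against normal cells was lost (log2 0.10, adjusted p = 0.0546), and without mECC replicate 4, Mrpl54 was called higher in mECC than in normal cells (log2 0.12, adjusted p = 0.00516).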

How the results depend on the processing

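Library totals and TPM, which leave out TMM factors, raised all genes in the lines relative to normal cells. The members' median in mECC against normal cells was then 0.379 with library totals, 0.384 on log2(TPM + 0.1) and 0.377 on log2(TPM + 1), with 7 members lower in each, and 0.115 with median-of-ratios factors, 0.175 with no filter and 0.164 with only the 2 groups compared. In HPmECC against normal cells it was 0.438, 0.450 and 0.437, with 5 members lower with library totals, and 0.211 with DESeq2, 0.204 with median-of-ratios factors and 0.276 with no filter. In HPmECC against mECC it was 0.069, 0.057 and 0.056, with 33 members higher and 17 lower with library totals and 27 higher and 20 lower on either TPM scale. With a 1.5-fold minimum, 1 member was higher and 1 lower in HPmECC against mECC, 14 and 3 in mECC against normal cells, and 17 and 2 in HPmECC against normal cells. The members' share of TPM was 0.788% in HPmECC, 0.765% in mECC and 0.589% in normal cells without mitochondrially encoded genes, and their share of counts 0.361%, 0.343% and 0.266%; the order of groups did not change. The TMM factors were 1.03 to 1.042 in HPmECC, 1.061 to 1.076 in mECC and 0.9007 to 0.9075 in normal libraries; other causes of these shifts were not tested.

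Sign changes were followed only for the 41 named members, and only where the main fit or the alternative gave a call. Other members may have changed sign as well. In mECC against normal cells the log2 fold changes of the named members that changed sign in this way were, with library totals, Mrpl17 0.075, Mrpl20 0.046, Mrpl21 0.016, Mrpl44 0.020, Mrps18a 0.218, Mrps21 0.187, Mrps22 0.056, Mrps30 0.154, Mrps31 0.059, Mrps9 0.205. On log2(TPM + 0.1) they were Mrpl17 0.089, Mrpl20 0.029, Mrpl21 0.003, Mrpl30 0.000, Mrpl44 0.033, Mrps18a 0.218, Mrps21 0.208, Mrps22 0.057, Mrps30 0.160, Mrps31 0.083, Mrps9 0.212. On log2(TPM + 1) they were Mrpl17 0.088, Mrpl20 0.029, Mrpl21 0.003, Mrpl30 0.000, Mrpl44 0.032, Mrps18a 0.216, Mrps21 0.207, Mrps22 0.055, Mrps30 0.152, Mrps31 0.079, Mrps9 0.207. In HPmECC against normal cells the log2 fold changes of the named members that changed sign in this way were, with library totals, Mrpl21 0.037, Mrpl47 0.166, Mrpl54 0.172, Mrps18b 0.108, Mrps31 0.162, Mrps7 0.093. On log2(TPM + 0.1) they were Mrpl21 0.001, Mrpl47 0.299, Mrpl54 0.156, Mrps31 0.155, Mrps7 0.073. On log2(TPM + 1) they were Mrpl21 0.001, Mrpl47 0.288, Mrpl54 0.155, Mrps31 0.148, Mrps7 0.072. Library totals also added calls without a change of sign among the named members. In mECC against normal cells these were Mrpl40 0.320, Mrpl54 0.324 and Mrpl58 0.286. In HPmECC against normal cells they were Mrpl48 0.217, Mrps11 0.278 and Mrps18a 0.285. Between the lines they were Mrpl20 −0.116, Mrps17 −0.090 and Mrps18c −0.154.

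With single libraries left out, members higher in HPmECC than in mECC numbered 35 to 44 and lower 8 to 12 (median 0.104 to 0.138), in mECC against normal cells 39 to 41 and 18 (median 0.125 to 0.156), and in HPmECC against normal cells 50 to 54 and 8 to 11 (median 0.223 to 0.258). Deviations of same-numbered libraries showed little correlation (from −0.027 to 0.08). These correlations do not show that the numbers carry no pairing, because 1 set of transcripts differed by number in every group. Mitochondrially encoded transcripts took a smaller share of TPM in replicates 1 and 2 than in replicates 3 and 4. The shares were 2.978% and 2.879% against 3.186% and 3.041% in HPmECC, and 3.201% and 3.064% against 3.716% and 3.585% in mECC. Those of normal libraries are given in the results. The cause was not tested. With the replicate block, 41 members were higher and 12 lower in HPmECC against mECC, 40 and 18 in mECC against normal cells, and 54 and 12 in HPmECC against normal cells. At this depth no member was near the detection limit. Members with the largest overlaps, with more abundant overlapping neighbours or with a transcribed pseudogene are limited by read assignment instead.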

Other observations

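Beside the counts in this section, 33.8% of all genes were higher and 34.5% lower in HPmECC against mECC. Against normal cells the shares were 42.1% and 44.2% in mECC, and 43.0% and 43.3% in HPmECC. Regulators of mitochondrial biogenesis did not move as 1 group. Of 8, 6 were higher and 1 lower in HPmECC than in mECC, 2 higher and 6 lower in mECC against normal cells, and 6 higher in HPmECC than in normal cells, where the other 2 did not pass. Ppargc1a, a coactivator that drives mitochondrial biogenesis in muscle and brown fat, averaged 8.65 ± 0.816 CPM in HPmECC libraries, 13.8 ± 0.990 CPM in mECC libraries and 1.68 ± 0.639 CPM in normal libraries. Yy1, named here for its motif after its values were seen, averaged 125 ± 6.10 CPM in HPmECC libraries, 81.1 ± 1.72 CPM in mECC libraries and 118 ± 2.29 CPM in normal libraries.

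Mitochondrial tRNA synthetases, 17 in all, had 14 higher and 2 lower in HPmECC than in mECC (median log2 0.36), 3 higher and 6 lower in mECC against normal cells (median −0.09), and 8 higher and 3 lower in HPmECC than in normal cells (median 0.07). The methionine enzyme gene Mars2 averaged 16.9 ± 0.858 CPM in HPmECC libraries, 8.19 ± 1.06 CPM in mECC libraries and 14.4 ± 0.653 CPM in normal libraries, and the valine enzyme gene Vars2 60.04 ± 2.69, 33.95 ± 1.40 and 59.2 ± 1.32 CPM.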
